A study of Mus musculus with 8 samples.

Results

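Stimulated WT T cells were divided by how much of their captured RNA came from the mitochondrial genome. Cells in which 10% or more of the unique molecular identifiers (UMIs, each standing for 1 captured RNA molecule) mapped to the 13 mitochondrially encoded genes are called high cells, and those under 10% low cells. The members were therefore chosen by a measured value, the deposited mitochondrial percentage of each cell. Library 1 held 1162 high and 541 low cells, and library 2 held 1161 high and 640 low cells. These 2323 high and 1181 low cells made up the 3504 stimulated WT cells of a series of 12846 cells.

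The series holds 8 libraries, with 2 for each pairing of genotype (WT or SDHA-KO) and culture (unstimulated or stimulated). Spleen T cells were isolated by magnetic separation, and the stimulated ones were cultured for 48 h with soluble antibodies to CD3 (5 μg/mL) and CD28 (2.5 μg/mL), which act on the T cell receptor and its costimulatory receptor. SDHA-KO mice carry Sdha fl/fl with CD4-Cre, which is active from the thymus onward in both CD4+ and CD8+ lineages, and the WT mice are C57BL/6. Mice were young adults. Dead cells were removed with a magnetic kit before capture in all groups, so every cell here passed that step. No source used here says how many mice went into a library, so the spread between libraries may be technical.

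Mitochondrially encoded messages are made and kept inside mitochondria, whereas messages of the nuclear genome pass through the nucleus and are translated either free in the cytosol or on the membrane of the endoplasmic reticulum (ER). A cell's mitochondrial percentage is a ratio of these compartments, and it can rise with more mitochondrial RNA or with less nuclear-encoded RNA in the droplet. It is widely used as a quality measure in single-cell work, and activated T cells also enlarge their mitochondria as they leave quiescence and divide.

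Few cells lay near the limit. The median percentage was 21.97% in high cells of library 1 and 20.56% in those of library 2, against 3.0% and 2.8% in low cells. High cells were 68.2% of library 1 (95% Wilson interval 66.0 to 70.4) and 64.5% of library 2 (62.2 to 66.6), and these intervals cover counting error only. In unstimulated WT cells, 0 of 1395 and 0 of 1508 cells reached 10%, which allows shares of up to 0.215% and 0.199%, taking 3 cells as the limit that a count of 0 allows. In stimulated SDHA-KO cells the share was 19.9% (328 of 1648 cells) and 16.1% (270 of 1680 cells).

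**Figure D1:**
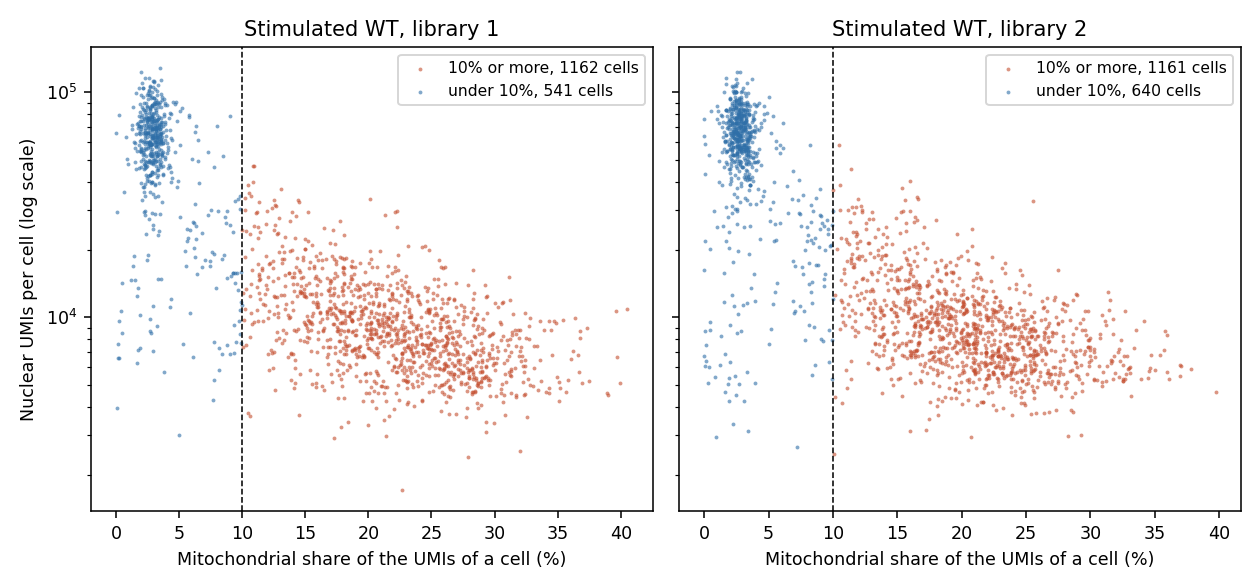
Each point is 1 stimulated WT cell, with its mitochondrial share of UMIs (%) on the x axis and its nuclear UMIs on a log y axis, 1 panel per library. A dense group of low cells has medians of 59590 and 59658 nuclear UMIs, the high cells spread from 10% to 40.5% with medians of 8634.5 and 8522, and the dashed line marks 10%.

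High and low cells differed far more in nuclear than in mitochondrial UMIs. The median high cell of library 1 had 8634.5 nuclear UMIs (5th to 95th percentile 4610 to 20089) and that of library 2 had 8522 (4769 to 21099). The median low cell had 59590 (9181 to 96978) and 59658 (8038 to 93453), so low cells held 6.90 and 7 times as many. Unstimulated WT cells, with medians of 7264 and 7763 nuclear UMIs, lay near the high cells. In mitochondrial UMIs the order was the other way and the gap small, with medians of 2417.5 and 2267 in high cells against 1790 and 1739.5 in low cells, a ratio of 1.35 and 1.30. The median number of nuclear genes detected was 3382 and 3257 in high cells and 6526 and 6568.5 in low cells. High cells thus carried 27.6% and 24.4% of the nuclear UMIs of their libraries but 75.3% and 71.8% of the mitochondrial UMIs. Since the percentage is made from these totals, they are a description and were not tested. RNA content and the efficiency of its capture cannot be told apart in UMIs per cell.

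The 2 sides overlapped in depth. In library 1, 5.08% of high cells had 20000 or more nuclear UMIs and 13.7% of low cells had fewer, and in library 2 these shares were 5.69% and 13.0%. In library 1, cells just inside and just outside the limit were alike in depth. The median was 15362 nuclear UMIs in the 56 cells between 10% and 12% and 15649 in the 37 cells between 8% and 10%. The corresponding values in library 2 were 16374 (63 cells) and 20684 (46 cells), so there the cells just under 10% were deeper.

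Among the 13 mitochondrial genes, the message composition also differed between sides. mt-Co1, which encodes the catalytic subunit of complex IV, was 12.9% and 14.2% of mitochondrial UMIs in high cells and 18.1% and 19.9% in low cells. mt-Atp6, a subunit of ATP synthase, was 19.0% and 18.5% in high cells and 16.2% and 15.8% in low cells. The mean per cell was almost the same on both sides for mt-Co1 (340.5 and 348.6 UMIs in high cells, 336.1 and 348.2 in low cells). For mt-Atp6 it was 501.5 and 452.6 in high cells and 300.8 and 275.4 in low cells. In unstimulated WT cells mt-Co1 was 12.9% and 13.0%, close to the high cells. With 2 libraries a paired exact test cannot go below p = 0.5, so shares, depths and cell cycle values are given without a test.

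High cells were found in both lineages. Classes and subsets are the ones deposited with the cells, and 60.9% and 59.0% of CD4 cells and 75.7% and 70.7% of CD8 cells were high. CD4 cells made up 45.01% and 49.18% of the high side and 62.1% and 61.9% of the low side. The sides nearly matched the subsets, whose clusters carry names of central (Tcm) and effector memory (Tem) T cells. Tcm cells were 97.2% and 96.3% of high cells and 10.9% and 10.8% of low cells. In Tcm1, 244 of 244 and 221 of 223 cells were high, whereas in Tem2 1 of 214 and 4 of 220 were, and in Tem3 1 of 131 and 0 of 161. Tem6 and Tem7 did not follow, with 9 of 10 and 15 of 17 cells high in Tem6 and 12 of 33 and 11 of 30 in Tem7. As the subsets came from clusters of the same cells, the match with depth and mitochondrial share is a description.

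CD3 messages were found on both sides. Between 99.74% and 100% of cells on each side and library had a UMI of a CD3 gene. The authors had removed clusters lacking CD3 genes, so this share was largely fixed beforehand and is no check of identity. Cells with UMIs of both Cd4 and Cd8 genes were 9.38% and 11.2% of high cells and 22% and 21.7% of low cells, at the depths given above, and the part of doublets in the low side was not tested. No doublet caller is named in the sources used here and none was run.

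Of 15126 nuclear genes tested, 9179 (60.7%) were called between high and low cells by edgeR's quasi-likelihood test at a Benjamini-Hochberg adjusted p under 0.05. Of all tested genes, 4100 (27.1%) were higher and 5079 (33.6%) lower in high cells. The test used nuclear UMIs summed by library and side and paired the sides of each library, with mitochondrial genes left out of the totals. The falls were larger than the rises, with 2840 genes at least 2-fold lower and 1010 at least 2-fold higher. Of the called genes, 9155 had the same sign in both libraries. The call was made over these same libraries and largely requires that agreement, so it is no separate support. Gene levels are given as CPM, a gene's UMIs scaled to a nuclear total of 1000000, after trimmed mean of M values (TMM) scaling. TMM sets the change of the typical gene near 0, and log2 fold changes had a median of 0.03. Without that scaling this median was 0.99, a shift of 0.96, so that a gene or list with a fall smaller than this stood above 0. The called genes then split into 9734 higher and 2206 lower, so 81.5% of called genes were higher against 44.7% with TMM. All 2206 were also called lower with TMM. A fall here therefore means a smaller part of the nuclear RNA relative to the typical gene. Gene levels of unstimulated WT cells carry the same kind of scaling, so their order against high cells can depend on it too.

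**Figure D2:**
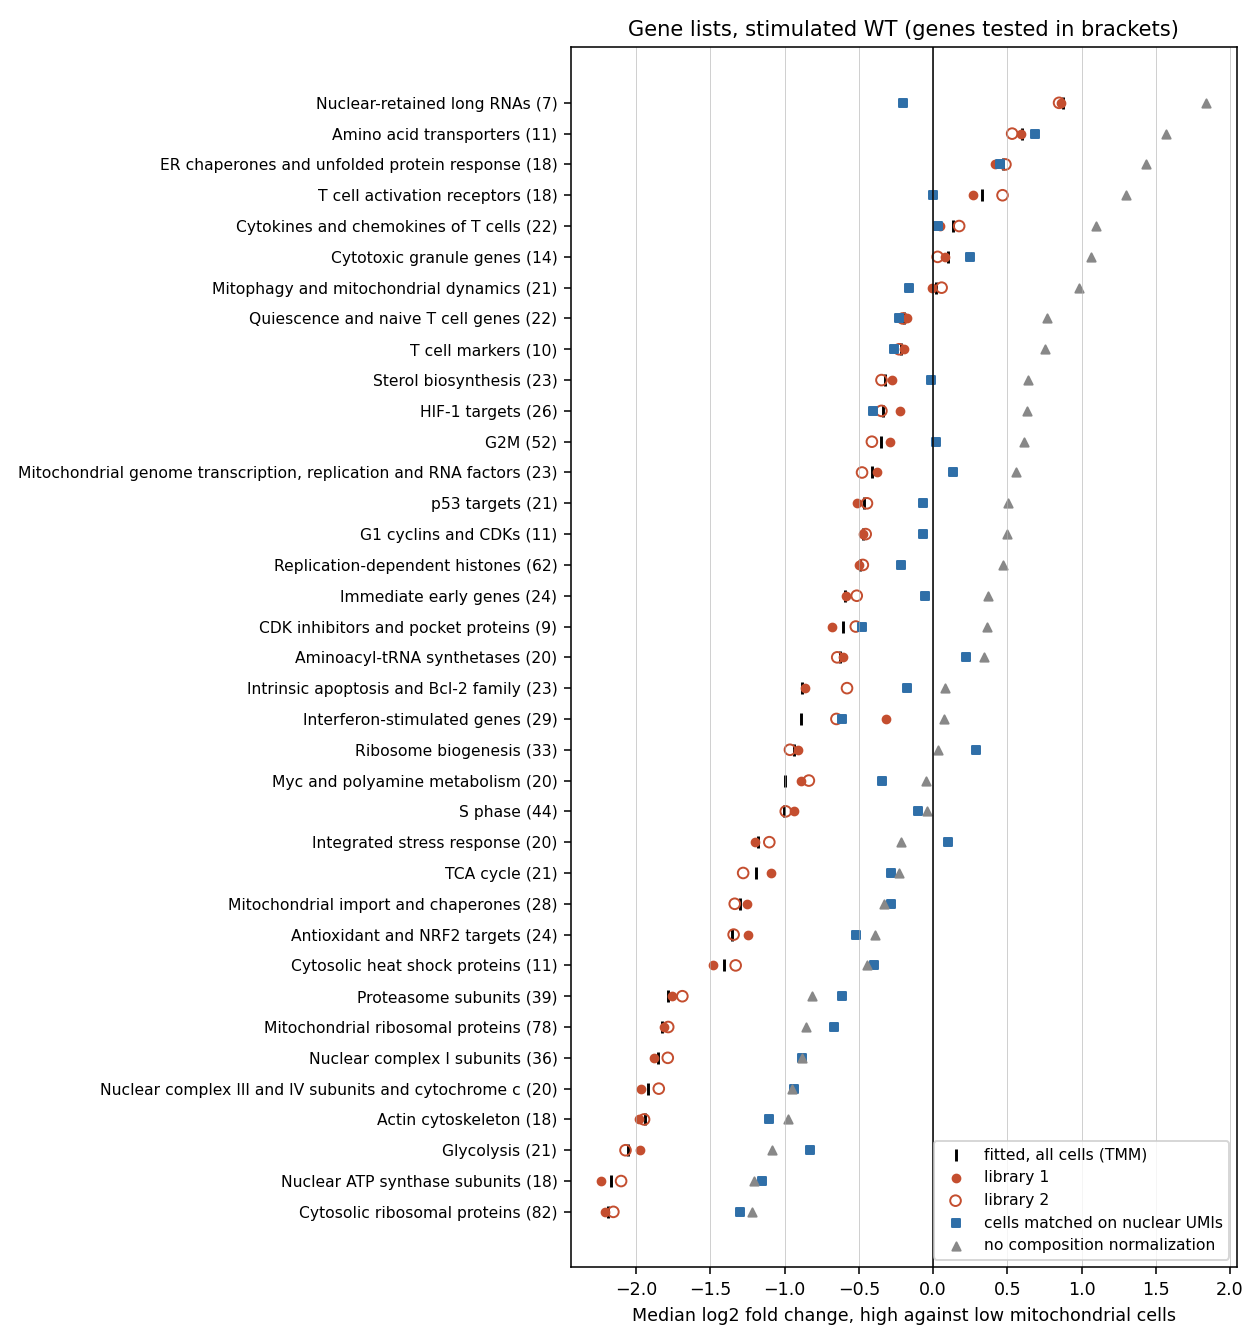
Each line is a gene list, with its median log2 fold change of high against low stimulated WT cells on the x axis: the fit over both libraries (bar), each library (circles), cells matched on nuclear UMIs (squares) and the fit without composition normalization (triangles). Ribosomal protein, ATP synthase and glycolysis lists have the lowest medians (-2.19 to -2.05). Nuclear-retained RNAs, amino acid transporters and ER chaperones lie above 0 in both libraries, and 15 of the plotted lists with medians below 0 stand above 0 without composition normalization.

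Of 41 gene lists, cytosolic ribosomal proteins had the lowest median. Summed over the list and given as plain CPM of nuclear UMIs, with no TMM scaling, they made up 152110 and 158240 in high cells, 344710 and 349560 in low cells, and 381430 and 385670 in unstimulated WT cells. All 82 tested members fell, with a median log2 fold change of -2.19. Rps4x, a protein of the small subunit, stood at 924 and 984 CPM in high cells and at 5854 and 6050 in low cells. Its log2 fold change was -2.64 (SE 0.0423, adjusted p = 3.15e-13), and the summed values of the sides did not overlap. Mitochondrial ribosomal proteins, which are nuclear-encoded, fell in 78 of 78 (median -1.82), as in Mrpl30 from 305 and 299 CPM in low cells to 49.5 and 54.2 in high cells (log2 fold change -2.54). Without composition normalization the medians of both lists remained below 0, at -1.22 and -0.86. In the ribosome biogenesis list 29 of 33 fell and 2 rose, with a median of -0.94 that went to 0.03 without composition normalization. Its member with the largest fall was Nop16 (-2.43), a nucleolar protein, and that with the largest rise Utp20 (0.41), a component of the small-subunit processome.

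All tested nuclear-encoded subunits of complexes I, III and IV and of ATP synthase were lower in high cells. In complex I, 36 of 36 nuclear subunits were lower in high cells (median -1.85). In complexes III and IV with cytochrome c it was 20 of 20 (median -1.92), and in ATP synthase 18 of 18 (median -2.17). Cycs, cytochrome c, was at 127 and 129 CPM in high cells and 653 and 657 in low cells, a log2 fold change of -2.35 (SE 0.0546, adjusted p = 8.26e-13). Atp5e, the epsilon subunit of ATP synthase, was at 152 and 181 CPM in high cells and 1011 and 1128 in low cells, a log2 fold change of -2.68. On the TMM scale high cells were also below unstimulated WT cells in both genes. Cycs stood there at 164 and 160 CPM and Atp5e at 1157 and 1226. For Cycs this order rests on that scaling. In plain CPM the summed list of complexes III and IV with cytochrome c was at 5768 and 6088 in high cells. It was at 4880 and 4830 in unstimulated WT cells. The ATP synthase list was at 3878 and 4078 against 4992 and 4987. Ndufs6 of complex I (-2.41) and Uqcr10 of complex III (-2.51) were the members with the largest falls in their lists. Sdha, the flavoprotein subunit of complex II that is deleted in SDHA-KO cells, fell by 0.40 on the log2 scale, from 117 and 116 to 89.5 and 86.5 CPM. Without composition normalization Sdha was 0.56 higher.

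Other mitochondrial genes followed in part. All 28 genes of mitochondrial import and chaperones were lower (median -1.30), led by Tomm6 (-2.56), a small subunit of the outer membrane translocase. In the TCA cycle list 20 of 21 fell (median -1.20), with the largest fall in Idh2 (-2.08), the mitochondrial isocitrate dehydrogenase that uses NADP. Factors of mitochondrial DNA and RNA were split, with 14 of 23 lower and 4 higher (median -0.41, and 0.56 without composition normalization). Tfam, which packages and transcribes mitochondrial DNA, was at 32.3 and 31.6 CPM in high cells and 89.1 and 88.4 in low cells (log2 fold change -1.47, SE 0.0667, adjusted p = 3.81e-10). Tufm, the mitochondrial elongation factor, fell by 1.82 on the log2 scale, whereas Pnpt1, the mitochondrial polynucleotide phosphorylase, was 0.60 higher. In mitophagy and mitochondrial dynamics 8 of 21 fell and 5 rose, among them Fis1, a fission receptor (-2.46), and Ppargc1b, a coactivator of mitochondrial biogenesis (0.58).

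Glycolysis divided along the kind of protein. Of 21 genes, 16 were lower and 5 higher in high cells. The 16 that fell were all enzymes of the pathway, and the 17 enzymes had a median of -2.14. Gapdh had the largest fall of all genes above 20 CPM, from 8115 and 8523 CPM in low cells to 884 and 985 in high cells (log2 fold change -3.16, SE 0.0463, adjusted p = 3.15e-13). High cells were still above unstimulated WT cells, at 532 and 523 CPM. Ldha, lactate dehydrogenase A, went from 2958 and 3119 to 696 and 734 CPM (log2 fold change -2.09). The 5 that rose were Hk2 (0.43), a hexokinase that binds the outer mitochondrial membrane, and the 4 carriers of glucose and lactate. Among these, Slc2a1, the glucose transporter GLUT1, was at 183 and 204 CPM in high cells and 136 and 141 in low cells (0.48), and Slc16a1, a lactate transporter, was 0.84 higher. The division of the list into carriers and enzymes was made after the values were seen and has no test.

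Sterol biosynthesis had the same kind of division. Of 23 genes, 9 rose and 11 fell (median -0.32, and 0.64 without composition normalization). Idi1, a soluble enzyme, fell from 252 and 243 to 64.1 and 61.4 CPM (-1.98), and Fdps, another soluble enzyme, from 607 and 615 to 170 and 179 CPM (-1.81). All 9 that rose were among the 16 membrane proteins of the list, of which 4 fell, and the 7 soluble members all fell (-1.98 to -0.81). This division was likewise made after the values were seen.

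ER chaperones and amino acid transporters had medians above 0 in high cells. Of 18 ER chaperones and unfolded protein response genes, 13 rose and 2 fell (median 0.47). Hspa5, the ER chaperone BiP, was at 840 and 827 CPM in high cells and 465 and 418 in low cells (log2 fold change 0.92, SE 0.0461, adjusted p = 1.12e-09). Hyou1, an ER chaperone of the same family, rose by 1.27 and Pdia6, a protein disulfide isomerase, by 1.08, while Sdf2l1, an ER-resident cofactor, fell by 0.61 but was 0.36 higher without composition normalization. Amino acid transporters rose in 9 of 11 with no fall (median 0.60), among them Slc38a2, a carrier of neutral amino acids, from 141 and 134 to 275 and 259 CPM (0.96). In the integrated stress response list, 15 of 20 fell and 4 rose, with the largest fall in Nupr1 (-1.80), a stress-induced chromatin protein. The 4 that rose were 3 subunits of amino acid carriers and a lipoprotein receptor, and the largest of these rises was in Slc7a11 (1.18), the cystine transporter, at only 5.98 and 5.72 CPM. Ddit3, the stress transcription factor CHOP, fell from 60.4 and 62.5 to 23.4 and 26.8 CPM (-1.29).

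Receptors of activated T cells rose in 11 of 18 with no fall (median 0.33). Cd44, an adhesion receptor gained on activation, was at 199 and 196 CPM in high cells and 123 and 123 in low cells (0.68, SE 0.0494, adjusted p = 5.22e-08). Lag3, an inhibitory receptor, was at 214 and 265 against 122 and 135 CPM (0.90). Il2ra, the high-affinity chain of the interleukin-2 receptor, did not pass the test, at 471 and 527 against 472 and 496 CPM (adjusted p = 0.496), and both sides were far above the 25.1 and 26.7 CPM of unstimulated WT cells. In cytokines and chemokines 5 of 22 rose and 5 fell. Ifng, interferon gamma, rose from 259 and 459 CPM in low cells to 904 and 1430 in high cells (log2 fold change 1.72, SE 0.0618, adjusted p = 3.68e-11). Csf2, the growth factor GM-CSF, was at 10.6 and 17.4 against 2.45 and 9.39 CPM (1.25). Il2 was 0.45 lower, at 75.5 and 63.6 against 120 and 73.9 CPM, it was 0.52 higher without composition normalization, and in cells matched on depth it was 0.82 higher (adjusted p = 0.00585). Ccl5, a chemokine of memory T cells, was low on both sides, at 4.91 and 5.65 against 23.3 and 37.8 CPM, and at 503 and 523 CPM in unstimulated WT cells.

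Among 14 cytotoxic granule genes, 4 rose and 4 fell. Gzmb, the main granzyme of activated killer T cells, was at 2532 and 2987 CPM in high cells and 2243 and 2922 in low cells, which did not pass the test (adjusted p = 0.189) and is a range in which the sides overlap. Prf1, perforin, rose by 0.98, from 25.8 and 37.4 to 48.1 and 77.4 CPM. Serpinb6b, a cytosolic protease inhibitor, fell by 2.13. The largest fitted rise belonged to Gzmd, which had 0 CPM on both sides of library 1 and 1.1 against 0.0407 CPM in library 2, so no fold is given.

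Genes that mark quiescent or naive T cells did not move one way, with 6 of 22 higher and 11 lower (median -0.20, and 0.77 without composition normalization). Il7r, the interleukin-7 receptor, was at 70.7 and 84.2 CPM in high cells and 45.05 and 54.36 in low cells (0.64). It was far below unstimulated WT cells, at 712 and 692 CPM. Ccr7, the chemokine receptor of lymph node homing, did not pass the test (371 and 408 against 399 and 414 CPM, adjusted p = 0.277). Tcf7, a transcription factor of memory and naive cells, fell by 0.94, at 43.6 and 41.1 against 82.0 and 79.9 CPM. Dapl1, a gene of naive cells, had the largest fall of the list (-2.06). Foxp3, the defining factor of regulatory T cells, was near 0 on both sides, with 0.252 and 0.390 CPM in high cells and 2.31 and 1.14 in low cells.

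Cytoskeletal and protein turnover genes were mostly lower. Actin cytoskeleton genes were lower in 18 of 18 (median -1.94). Actb, beta-actin, went from 8262 and 7993 CPM in low cells to 1195 and 1228 in high cells (-2.75), and Pfn1, profilin, from 1902 and 2088 to 215 and 265 (-3.06). For both genes unstimulated WT cells stood near low cells, at 7571 and 7238 CPM for Actb and 1815 and 1770 for Pfn1. Proteasome subunits fell in 37 of 39 (median -1.78), led by Psmb6 (-2.47). Cytosolic heat shock proteins fell in 8 of 11 (median -1.41), with Hsp90ab1 from 6085 and 5939 to 1357 and 1345 CPM (-2.15). Antioxidant and NRF2 target genes fell in 19 of 24 and rose in 2 (median -1.36), with Gpx1, a glutathione peroxidase, at -2.65. The remaining 5 of the 10 largest falls were in Mea1 (-2.90), Npm3 (-2.74), Myl12a (-2.73), Tmsb10 (-2.71) and Csnk2b (-2.65). Of these, Tmsb10 binds actin monomers and Myl12a is a myosin light chain. Mea1, Npm3, Myl12a and Csnk2b overlap a gene on the opposite strand.

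The remaining lists were mixed, and without composition normalization the medians of all of them but the Myc list stood above 0 (0.08 to 0.63). Aminoacyl-tRNA synthetases fell in 17 of 20 (median -0.63), led by Sars (-1.94), and genes of Myc and polyamine metabolism fell in 16 of 20 (median -0.998), with Srm, spermidine synthase, at -2.37, and Azin1, which spares ornithine decarboxylase, 0.32 higher. Myc itself fell by 1.09, from 121 and 147 to 57.2 and 69.0 CPM. HIF-1 targets rose in 8 of 26 and fell in 14, with Adm, a secreted peptide, 0.80 higher and Higd1a, a mitochondrial inner membrane protein, at -2.24. Immediate early genes rose in 4 of 24 and fell in 15, with Fosb 1.11 higher and Atf3 at -1.59. In the intrinsic apoptosis list 13 of 23 fell and 3 rose. Bak1, which permeabilizes the outer mitochondrial membrane, fell from 55.9 and 55.8 to 15.8 and 14.2 CPM (-1.90). Bcl2, a survival member of the family, rose from 666 and 699 to 1193 and 1266 CPM (0.85). Among p53 targets 14 of 21 fell and 2 rose, with Phlda3, a repressor of Akt, at -2.09 and Sesn1 0.61 higher. Interferon-stimulated genes fell in 14 of 29 and rose in 2, with Isg15 at -2.96 (2.01 and 2.34 against 15.9 and 17.9 CPM) and Xaf1, whose sides overlapped at 22.7 and 5.98 against 9.91 and 5.25 CPM, 0.82 higher.

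Long noncoding RNAs led the rises. All 7 tested members of the list of nuclear-retained long RNAs were higher in high cells (median 0.87, the highest of the 41 lists). Malat1, a structural RNA of nuclear speckles, was at 7876 and 7774 CPM in high cells and 3309 and 3198 in low cells (log2 fold change 1.27, SE 0.0497, adjusted p = 8.84e-11), and at 27940 and 26991 in unstimulated WT cells. Xist, which coats the inactive X chromosome, was at 2127 and 2003 against 839 and 813 CPM (1.32), and Neat1, the RNA of paraspeckles, was 0.49 higher. Of the 10 largest rises above 20 CPM, 8 were annotated as antisense RNAs, Tsix among them. Gm4876 (chr6:17065010-17171833, minus strand, mm10), antisense to Tes, rose from 6.84 and 6.87 to 34.9 and 35.9 CPM (2.37, SE 0.116, adjusted p = 9.14e-10). Gm26749 (chr17:74575381-74617119, minus strand), antisense to Birc6, was 2.34 higher, and Gm32036 (chr13:20445286-20473490, minus strand), antisense to Elmo1, 2.31 higher. Gm26827 (2.14), 4930444A19Rik (2.10), Gm36756 (2.10) and Gm48678 (2.09) were the others. Tsix, the antisense partner of Xist, was 2.08 higher, and Lrrc4, a coding gene whose span overlaps Snd1, 2.07 higher. Reads of such a gene and its partner cannot be told apart where the strand setting of the counting is not stated. Lars2, the mitochondrial leucyl-tRNA synthetase, rose from 310 and 323 to 1217 and 1486 CPM (2.09) and stood at 2432 and 2305 CPM in unstimulated WT cells. The gap between high and unstimulated cells in Lars2 depends on the TMM scaling.

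Over all genes, the change followed gene class and length, which the rule did not use. Of the tested genes, 14916 (98.6%) matched the GENCODE M21 annotation by symbol. Among 2102 long noncoding genes 692 rose (32.9%) and 153 fell (7.28%), with a median of 0.59, against 26.1% and 38.4% of 12741 protein-coding genes, with a median of -0.07. Among protein-coding genes divided into 5 equal groups by exon length, the median log2 fold change went from -0.92 in the shortest group (up to 2428 exon bases) through -0.47, -0.14 and 0.11 to 0.36 in the longest (7565 bases or more). By genomic span it went from -1.03 in the shortest group (up to 8.51 kb) to 0.43 in the longest (69.7 kb or more). In the shortest group by span 64.7% of genes fell and 6.51% rose, and in the longest 7.69% fell and 57.4% rose. These are shares of genes, which are not independent replicates.

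**Figure D3:**
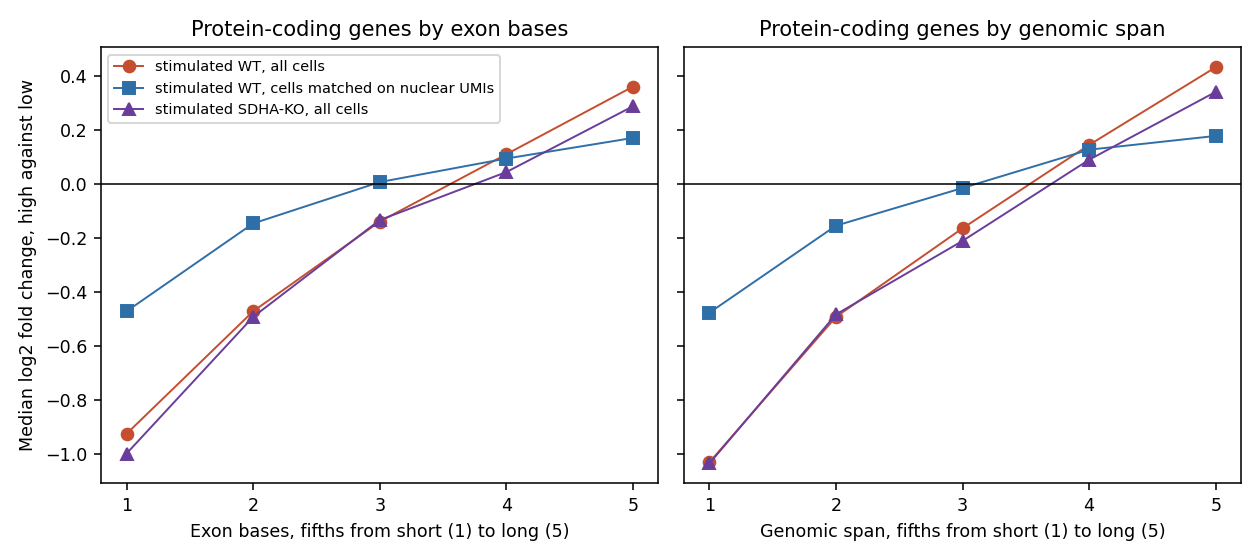
The median log2 fold change of high against low cells is plotted on the y axis for 5 equal groups of protein-coding genes from short to long, by exon bases (left) and genomic span (right). Stimulated WT (circles) and SDHA-KO (triangles) climb from between -1.03 and -0.92 to between 0.29 and 0.43, and cells matched on nuclear UMIs (squares) climb from -0.47 and -0.48 to 0.17 and 0.18.

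Counted per cell, the groups differed in how far high cells fell behind. A high cell held a mean of 12.1 and 13.1 Gapdh UMIs against 318 and 328 in a low cell, and 1521 and 1577 UMIs of cytosolic ribosomal proteins against 19442 and 19590. For Malat1 the means were 108 and 103 in high cells and 130 and 123 in low cells, close to the 136 and 139 of unstimulated WT cells. For Xist they were 29.1 and 26.6 against 32.9 and 31.3. Ifng was at 12.3 and 18.9 UMIs per high cell and 10.2 and 17.6 per low cell, and Lars2 at 16.6 and 19.7 against 12.2 and 12.4, so for Ifng and Lars2 a high cell held no fewer molecules than a low cell. ER chaperone genes summed to 64.1 and 63.5 UMIs per high cell and 132.6 and 122.7 per low cell, and 7.84 and 8.76 in unstimulated WT cells. These means carry no test.

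Both sides were in cycle, and unstimulated WT cells were not. Mki67, a marker of cycling cells, was at 302 and 306 CPM in high cells, 296 and 312 in low cells and 1.32 and 1.42 in unstimulated WT cells, with no difference between sides that passed the test (log2 fold change -0.00, adjusted p = 0.994). Top2a, the topoisomerase of mitotic chromosomes, was at 538 and 488 against 564 and 552 CPM (-0.12, adjusted p = 0.1). Without composition normalization both were higher in high cells, by 0.97 and 0.84. Factors of DNA replication were lower in high cells. Mcm5, of the replicative helicase, was at 42.2 and 39.1 against 142 and 139 CPM (-1.79, SE 0.0650, adjusted p = 3.93e-11), and Pcna, the polymerase clamp, at 140 and 140 against 403 and 440 CPM (-1.59). Cdk1, the kinase of mitotic entry, was at 72.4 and 72.8 against 169 and 177 CPM (-1.25).

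**Figure D4:**
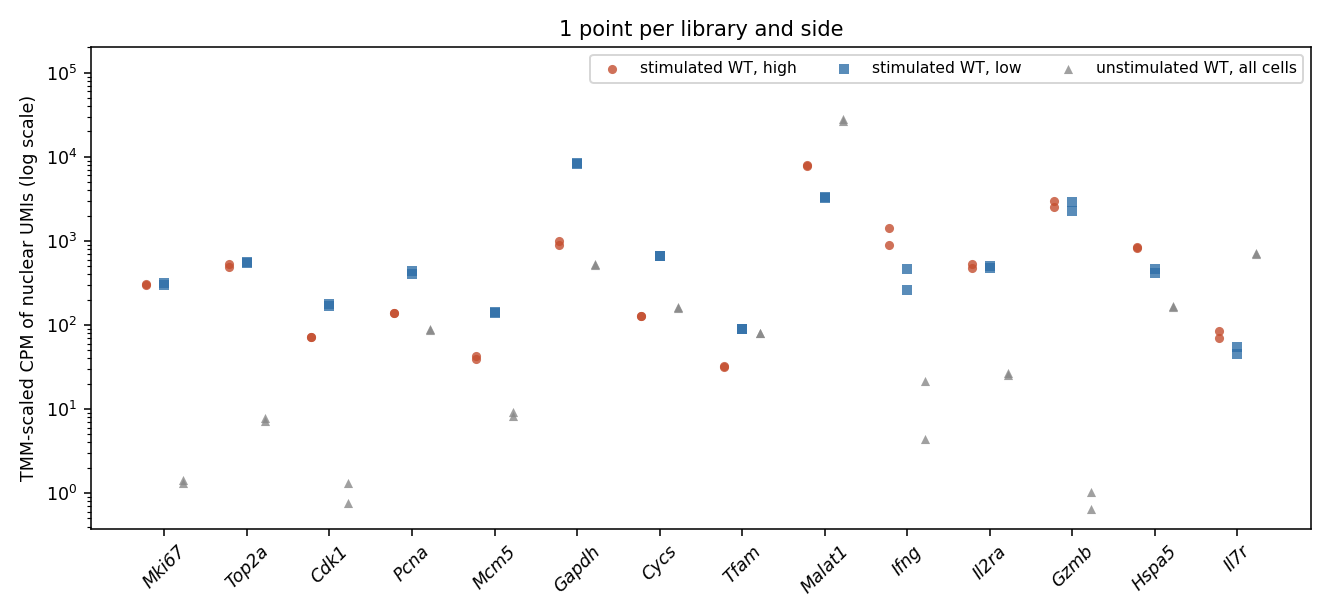
TMM-scaled CPM on a log y axis for 14 genes, 1 point per library: stimulated WT high cells (circles), low cells (squares) and unstimulated WT cells (triangles). Mki67, Top2a, Cdk1, Ifng, Il2ra and Gzmb lie far above unstimulated cells on both sides, while Gapdh and Cycs of high cells lie nearer to unstimulated than to low cells and Tfam lies below both. Distances from unstimulated cells can depend on the TMM scaling.

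As lists, 37 of 44 S phase genes fell and 5 rose (median -1.01), and 32 of 52 G2M genes fell and 11 rose (median -0.35). Gins2, of the helicase complex, had the largest fall among S phase genes (-1.95) and Pola1, of DNA polymerase alpha, the largest rise (0.55). Among G2M genes these were Tubb4b, a beta-tubulin (-2.22), and Ect2, which starts the cleavage furrow (0.73). Histone genes fell in 47 of 62 (median -0.49, and 0.47 without composition normalization), with Hist1h2ap at -1.34. Of 11 G1 cyclin and CDK genes 7 fell and 4 rose (median -0.47, and 0.50 without composition normalization). Cdk4, the kinase of D-type cyclins, fell from 309 and 322 to 58.1 and 60.6 CPM (-2.41), and the largest rise was in Ccnd1 (2.16), at 1.95 and 1.17 CPM in high cells. CDK inhibitors and pocket proteins fell in 5 of 9 and rose in 3 (median -0.61, and 0.36 without composition normalization), with Rbl1 0.28 higher and the rare Cdkn1c at -2.59. Without composition normalization the S phase median was -0.04 and the G2M median 0.61. In cells matched on nuclear UMIs they were -0.10 and 0.02. The direction of the G2M list thus rests on the scaling, and so does most of the S phase fall. Summed over the list, S phase genes were at 4408 and 4132 plain CPM in high cells and 4019 and 3886 in low cells, against 613 and 600 in unstimulated WT cells. The corresponding values for G2M genes were 7217 and 6928, 6501 and 6645, and 1180 and 1151.

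To compare shares of cells at equal depth, each cell was thinned to 2000 nuclear UMIs, which left out 1 high cell of library 1 and 3 cells of unstimulated WT library 1. A UMI of Mki67 was then found in 44.7% and 43.0% of high cells, 31.1% and 33.1% of low cells, and 0.0718% and 0.265% of unstimulated WT cells. Before thinning, the order was the reverse, at 79.9% and 78.9% of high cells against 89.3% and 88.1% of low cells. Thinned shares carry no TMM scaling. Without that scaling the log2 fold change of Mki67 was 0.965, and with it no difference between sides passed the test. The gap in thinned Mki67 shares therefore depends on the scaling too. The Mcm5 shares were 9.91% and 9.13% in high and 14.6% and 14.4% in low cells. Phase calls from the S and G2M lists gave 10.6% and 12.3% of high cells and 11.8% and 14.5% of low cells in G1, against 96.6% and 97.1% of unstimulated WT cells. The small gap in G1 between the sides changed sign at other depths of thinning, so no order is read from it.

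Within each side the gene groups also varied with the mitochondrial share. From the bin that begins at 10% to that of 30% or more, cytosolic ribosomal proteins went from 100970 to 184170 plain CPM in library 1 and from 130390 to 193060 in library 2. Over the same bins quiescence genes went from 7202 to 4510 in library 1 and from 7024 to 4510 in library 2, and nuclear-retained RNAs from 40715 to 53613 and from 41231 to 61928. The lowest ribosomal protein values and the highest quiescence values were thus those of cells just above the limit, and cells between 7.5% and 10% lay near them, at 147500 and 141740 for ribosomal proteins. Bins hold 36 to 373 cells, and each library gives 1 value per bin.

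**Figure D5:**
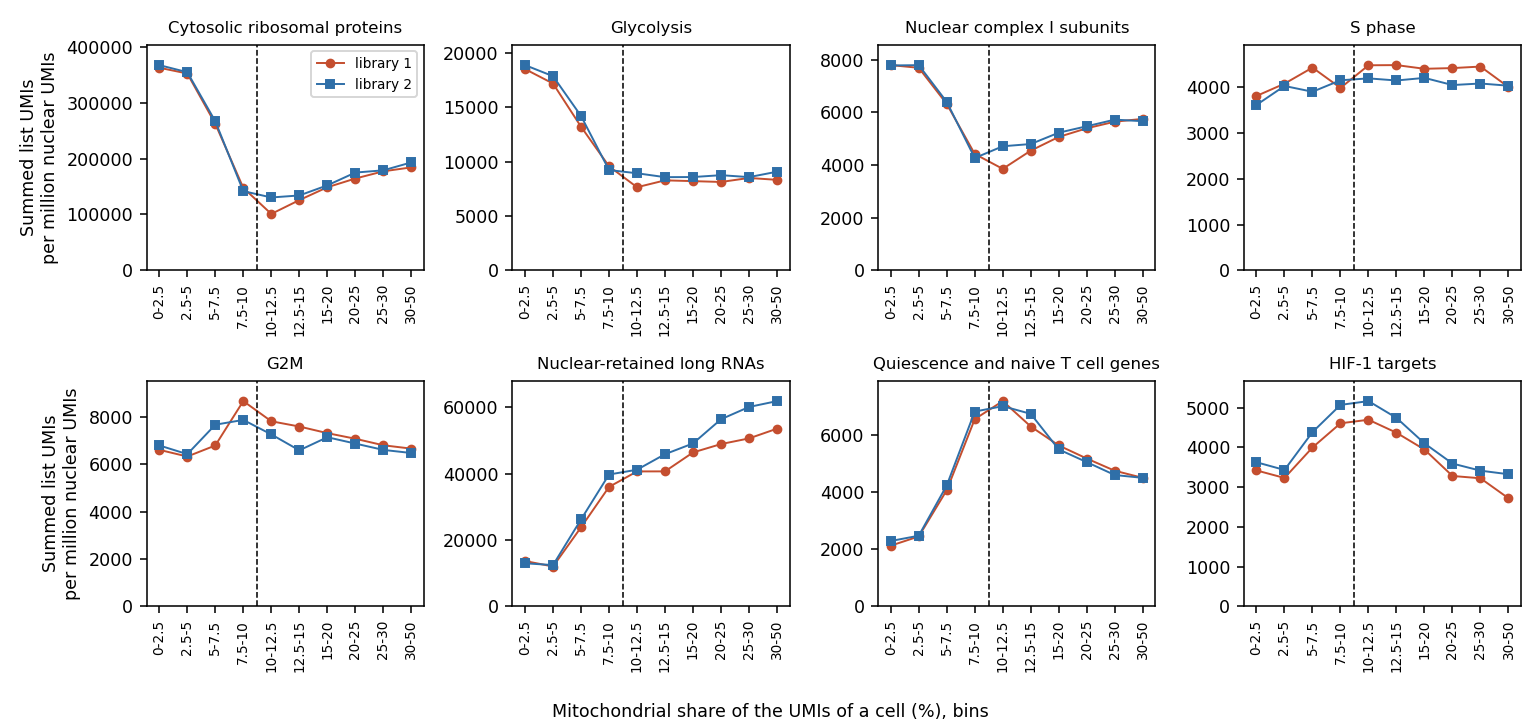
Summed plain CPM of nuclear UMIs of 8 gene lists (y axes, from 0) are drawn by bins of the mitochondrial share of a cell (x axes), 1 line per library, with the 10% limit dashed. Ribosomal proteins fall from 362260 and 366990 to a low point in the bin that begins at 10% and climb again, while S phase and G2M genes stay within narrow ranges in both libraries.

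Depth itself was then held equal. When 120 high and 120 low cells of library 1 and 142 and 142 of library 2 were matched on nuclear UMIs, 2348 of 11129 genes were called, 807 higher and 1541 lower. Of these 2348, 2063 were called in the same direction over all cells and 95 in the opposite one. The matched cells are part of all cells, where 60.7% of tested genes were called, so much of this agreement is built in. Ribosomal proteins (median -1.30), ATP synthase (-1.15), actin genes (-1.10) and glycolysis (-0.83) were again below 0, and ER chaperones (0.45) and amino acid transporters (0.68) above it. Gapdh (-1.85), Cycs (-0.96), Hspa5 (0.78) and Ifng (1.11) passed the test in these cells with the direction they had over all cells. The nuclear-retained RNAs had a median of -0.20 there, although Xist was still higher (0.44, adjusted p = 0.00429). Of the 8 antisense RNAs named for the largest rises, Gm4876 (0.64), Gm26749 (0.83), Gm36756 (0.82) and Tsix (0.56) passed the test in these cells with smaller rises, and Gm32036 (0.62), Gm26827 (0.44), 4930444A19Rik (0.42) and Gm48678 (0.32) did not (adjusted p = 0.0553, 0.154, 0.0882 and 0.268). Malat1 was at -0.25 (adjusted p = 0.0677), Lars2 at -0.11 (adjusted p = 0.469) and Bcl2 at -0.08 (adjusted p = 0.563). Activation receptors had a median of -0.00, with Lag3 at -0.01 (adjusted p = 0.952). The matched low cells are the shallow part of that side and not a sample of it. Matched on the authors' subsets instead, with 84 and 99 cells a side, 60 of 10371 genes were called, 26 higher and 34 lower.

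The lineages were also fitted apart. In CD4 cells 8105 of 14298 tested genes were called and in CD8 cells 7704 of 13609. Of the 13279 genes tested in both, 6731 were called in both. That is 83.0% of the genes called in CD4 cells and 87.4% of those called in CD8 cells. Most tested genes were called in each lineage, so a large overlap follows in part from those shares. Of the 6731, 6706 had the same direction and 25 the opposite one. The median of ribosomal proteins was -2.24 in CD4 and -2.02 in CD8 cells, that of glycolysis -1.91 and -1.89, and that of ER chaperones 0.25 and 0.61. Cd4 was higher in high cells over all cells (0.56, at 83.6 and 97.3 against 59.4 and 63.6 CPM), and so was Cd8a (0.53, at 127 and 136 against 86.2 and 95.5 CPM). Among T cell markers, 6 of 10 fell and 2 rose (median -0.21, and 0.75 without composition normalization), with Trbc2 at -0.87, Cd247 0.20 higher, Cd3e at -0.34 and Cd3g not passing the test (407 and 415 against 410 and 423 CPM). Il2 was at 0.12 in CD4 and -2.19 in CD8 cells, and the difference between lineages was not tested.

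Many markers of other spleen cells were absent, though not all. The authors had removed clusters lacking CD3 genes, so low counts of these markers were set in part beforehand. Pax5 of B cells, Lyz2, Adgre1, the C1q genes and S100a8 and S100a9 of myeloid cells, Ncr1 and Klra8 of NK cells, and Hba-a1 of red cells had 0 UMIs on both sides of both libraries. Of 9 B cell markers 6 were tested and 2 fell, with Ighm, the IgM heavy chain, at 18.8 and 17.0 CPM in high cells and 146 and 54.6 in low cells. Other B cell markers were present and, in plain CPM, not lower in high cells. Cd79b was at 8.87 and 9.59 in high cells against 5.05 and 4.99 in low cells. Cd74 was at 36.9 and 30.3 against 34.3 and 24.0, and Ebf1 at 2.15 and 6.40 against 2.13 and 1.51. In sum the B cell list was at 74.4 and 69.7 plain CPM in high cells, 143 and 68.5 in low cells and 169 and 183 in unstimulated WT cells. Of 5 myeloid markers tested, Cst3, which many cells express, fell by 0.22 on the log2 scale and was 0.75 higher without composition normalization, and Csf1r rose from 2 and 7 UMIs in low cells to 9 and 14 in high cells. The myeloid list summed to 138 and 133 plain CPM in high cells and 81.3 and 78.5 in low cells, nearly all of it Cst3. Of 4 NK markers Eomes, also a factor of memory CD8 T cells, fell (-1.53). Among erythroid and platelet markers Itga2b had the most UMIs, with 10 and 13 in high cells and 18 and 15 in low cells. The NK list summed to 11.2 and 9.51 plain CPM in high cells and 13.3 and 14.2 in low cells, and the erythroid and platelet list to at most 1.55. The part of such cells in the results was not tested.

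The same division was made in stimulated SDHA-KO cells, to ask whether it looks alike when Sdha is deleted. Over whole libraries Sdha was lower in SDHA-KO, at 44.7 and 45.3 plain CPM against 90.2 and 90.2 in unstimulated cells, and at 42.8 and 37.9 against 92.7 and 88.0 in stimulated cells. The 2 sides did not share this. In SDHA-KO low cells Sdha was at 37.5 and 34.5 plain CPM against 81.4 and 79.3 in WT low cells, whereas in SDHA-KO high cells it was at 127 and 112 against 122 and 115 in WT high cells. In summed values, the high cells of the libraries labelled SDHA-KO therefore overlapped WT high cells in Sdha. This goes against their label, and directions drawn from them rest on that label. These values rest on 342 and 236 Sdha UMIs, and which part of the message is deleted and which part the reads cover is not given in the sources used here. The change of Sdha between sides was 0.83 in SDHA-KO and -0.40 in WT (adjusted p of the difference 9.85e-06).

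Stimulated SDHA-KO high cells had medians of 6818.5 and 6456.5 nuclear UMIs and their low cells 29145 and 28603, a ratio of 4.27 and 4.43. Their mitochondrial UMIs differed more than in WT, with 1701 and 1744.5 in high cells and 497.5 and 459.5 in low cells, a ratio of 3.42 and 3.80. The change between sides differed between SDHA-KO and WT in 1796 of 15126 genes (11.9%) by edgeR's test of the difference, 949 more positive in SDHA-KO and 847 more negative. Without the library block 658 genes passed, without WT library 1 or 2 it was 1058 and 897, and in cells matched on subset 0 of 10371 passed, with 637 at an unadjusted p under 0.05. Of the 9179 genes called in WT, 8495 (92.5%) had the same sign in SDHA-KO. The same share over all tested genes was not taken. As the SDHA-KO high cells had WT levels of Sdha, this share does not show how the division looks without Sdha.

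The list medians in SDHA-KO cells were -2.39 for cytosolic ribosomal proteins, -2.31 for ATP synthase and 0.86 for nuclear-retained RNAs. Among ribosomal proteins the difference passed the test in 53 of 82 genes, and 52 of these fell further in SDHA-KO. Glycolysis had a median of -1.58 there, and in 10 of its 21 genes the change was more positive in SDHA-KO, with none more negative. In ER chaperones 12 of 18 were more positive and none more negative, with Hspa5 at 1.60 in SDHA-KO and 0.92 in WT. S phase and G2M genes were more positive in 14 of 44 and 13 of 52, and 1 G2M gene was more negative. Mki67 was 0.53 higher in high than in low cells of SDHA-KO, a difference from WT that passed the test (adjusted p = 0.000440). Gzmb was 1.29 higher in SDHA-KO against 0.10 in WT (adjusted p of the difference 1.19e-05). Lars2 was 0.60 higher in SDHA-KO against 2.09 in WT (adjusted p of the difference 3.98e-06). Thinned to 2000 nuclear UMIs, 10.7% and 11.5% of SDHA-KO high cells were called G1 and 26.2% and 32.1% of low cells (1 cell of library 1 and 6 of library 2 were too shallow to enter), and whether this gap differs from that in WT was not tested.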

How the data were processed

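Chromium 3′ HT v3.1 libraries were sequenced on an Illumina instrument, and bcl2fastq, Cell Ranger and build mm10 are named in the submitters' processing notes (versions not given in the sources used here). In Seurat the authors dropped cells with very many detected genes and clusters lacking CD3 genes, and they deposited whole-number UMI counts per gene and cell with no normalization. Their deposited cell table adds the percent of each cell's UMIs from mitochondrial genes, recomputed here to within 5.68e-14 percentage points, and their class and subset labels. Whether introns were counted, and with which strand setting, is not given in the sources used here. Of 12823 barcodes, 23 occurred in more than 1 library, 1 of them in both stimulated WT libraries.

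Nuclear UMIs were summed per library and side for the 4 stimulated libraries (8 sums of 2112954 to 45079908 UMIs, and of 11570987 to 35866851 in WT). They were tested with edgeR 4.0.16 in R 4.3.3, using filterByExpr (minimum count 10), TMM factors, a library block and a side effect within each genotype, the quasi-likelihood test with 2 residual degrees of freedom, and Benjamini-Hochberg adjustment over 15126 genes. Both sides come from 1 capture, so the block is the library itself. The coefficient of variation left after the library block and side effects was 4.54%. It reflects how the change between sides varied between libraries of a genotype, and not how whole libraries differed. On data simulated with this design (14342 genes), 97% of 1.5-fold, 100% of 2-fold and 100% of 4-fold changes were recovered, with 13 false calls. Only 67, 67 and 66 genes were changed at those folds, in both directions, and all others had equal expected shares on both sides. In the data 60.7% of genes were called, so these rates do not carry over to the comparison itself.

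Named by rule were the 10 largest rises and falls among calls averaging 20 CPM or more whose sides did not overlap, the called member with the largest rise and the largest fall of each of 41 lists, and Mki67, Top2a, Mcm5, Pcna, Sdha, Cd4, Cd8a, Malat1, Cycs and Tfam. Ccr7, Cd44, Tcf7, Foxp3, Il2ra, Gzmb, Il2, Myc, Ldha, Slc2a1, Hspa5, Ddit3, Neat1, Cdk1, Prf1, Csf2, Hk2, Pdia6, Slc38a2, Fdps, Cd3e, Cd3g, the mitochondrial genes and the markers at 0 were chosen after their values were seen. The same holds for Cd79b, Cd74 and Ebf1. Some genes that these rules name are not reported here. The members and lists were chosen with earlier results of these data known. Shares have 95% Wilson intervals. Phases were called in scanpy 1.11.5. Alternatives were other scalings, DESeq2 1.42.0, no filter, no block, other thresholds, left-out libraries and other sets of cells. Gene positions come from GENCODE M21 (mm10).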

Additional observations from a re-analysis of the deposited data

Results flagged for a closer look

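The results given here had a change between high and low cells that differed between stimulated SDHA-KO and stimulated WT libraries, by edgeR's quasi-likelihood test of that difference with Benjamini-Hochberg adjustment. Over all genes this held for 1796 of 15126. Values below are the log2 fold change in SDHA-KO minus that in WT, and Sdha itself had the largest positive one among the named genes that passed (1.24), with the SDHA-KO high cells at WT levels of Sdha as described above.

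Among genes of activated T cells, Gzmb (1.18), Csf2 (0.801), Eomes (0.892), Cd3g (0.474) and Cd44 (0.336) were more positive in SDHA-KO. Lag3 (-0.65), Cd8a (-0.541), Cd4 (-0.464), Trbc2 (-0.425), Ifng (-0.321), Cd3e (-0.316) and Ccr7 (-0.277) were more negative. Sdha, Gzmb, Lag3 and Cd44 thus did not move together, and no explanation of these differences was tested.

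Among ER, chaperone and stress genes, Hsp90ab1 (0.878), Pdia6 (0.801), Sdf2l1 (0.788), Hspa5 (0.676) and Atf3 (0.451) were more positive. In metabolism this held for Tufm (0.778), Hk2 (0.673), Fdps (0.558), Ldha (0.502), Slc16a1 (0.465), Azin1 (0.436), Srm (0.342) and Slc2a1 (0.303). In the cell cycle it held for Hist1h2ap (0.881), Mki67 (0.527), Mcm5 (0.502) and Tubb4b (0.356), and further for Bak1 (0.457) and Cst3 (0.276).

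Atp5e (-0.982), Tomm6 (-0.533), Tmsb10 (-0.494) and Bcl2 (-0.311) were more negative. So were Malat1 (-0.402) and 7 of the 10 genes with the largest rises in WT, which were chosen for their rise there: Lars2 (-1.49), 4930444A19Rik (-1.13), Gm4876 (-0.762), Gm32036 (-0.752), Gm48678 (-0.725), Lrrc4 (-0.51) and Tsix (-0.365). The other 3, Gm26749, Gm26827 and Gm36756, did not pass.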

How the results depend on the processing

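The count of 9179 called genes stayed within 1.5 times under 18 alternatives, from 6882 (a threshold of 20%) to 11940 (no composition normalization). It was 4756 (2020 higher, 2736 lower) after thinning to 2000 nuclear UMIs, 2348 (807 and 1541) in cells matched on nuclear UMIs, 60 (26 and 34) in cells matched on subset, and 2572 (374 and 2198) against a 2-fold change. Fewer cells or UMIs entered the first 3 of these by construction. Without composition normalization 9734 genes were higher and 2206 lower. Leaving out 1 library gave 2673 to 4538 higher genes, the lowest without WT library 2. A threshold of 5, 15 or 20% put 71.3, 56.0 or 38.6% of cells on the high side (66.3% at 10%), with depth ratios of 7.18, 6.21 and 3.22 (6.95 at 10%). The difference in CD4 share was -14.9 points at 10%, -11.1 at 15% and -4.89 at 20%.

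Without the replicate block 8531 genes were called, and the count that differed between genotypes went from 1796 to 658. That count was 1008 with DESeq2, 2796 at a threshold of 5%, 535 after thinning, 831 in cells matched on nuclear UMIs, 548 in CD4 and 595 in CD8 cells, 0 in cells matched on subset by edgeR (637 of 10371 at an unadjusted p under 0.05), and 897 to 1772 with 1 library left out. Same-numbered libraries of different genotypes were not paired, since the number is a name only.

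The share of cells with an Mki67 UMI was 11.8 points higher on the high side after thinning to 2000 UMIs. It was 14.7, 8.04 and 2.43 points higher at thresholds of 5, 15 and 20%, 6.5 and 17.4 points higher after thinning to 1000 and 4000, and -9.32 points without thinning. The Mcm5 difference was -4.97 points, with -6.05, -4.11 and -2.33 at those thresholds, -3.29 and -13.7 at those depths and -50.7 without thinning. The G1 difference of -1.72 points turned to 0.9 and 1.69 at those depths and 1.8 without thinning.

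Among lists with most tested members called and a median further from 0 than the spread between libraries, those whose median changed sign without composition normalization were T cell markers (0.752), G2M (0.613), G1 cyclins (0.497), CDK inhibitors (0.36), histones (0.473), HIF-1 targets (0.631), mitochondrial genome factors (0.556), apoptosis (0.0801), p53 targets (0.501), immediate early genes (0.373), ribosome biogenesis (0.0294), aminoacyl-tRNA synthetases (0.34), sterol biosynthesis (0.642), quiescence (0.77) and interferon-stimulated genes (0.0754). In cells matched on nuclear UMIs they were G2M (0.0211), mitochondrial genome factors (0.133), the integrated stress response (0.1), nuclear-retained RNAs (-0.203), ribosome biogenesis (0.288), aminoacyl-tRNA synthetases (0.223) and activation receptors (-0.00425). In cells matched on subset they were T cell markers (0.0444), histones (0.0347), mitochondrial genome factors (0.0803), mitochondrial import (0.058), immediate early genes (0.0344), ribosome biogenesis (0.363), aminoacyl-tRNA synthetases (0.211) and sterol biosynthesis (0.214). After thinning they were T cell markers (0.0436) and sterol biosynthesis (0.12), in CD8 cells T cell markers (0.0322) and cytotoxic genes (-0.0498), in CD4 cells cytotoxic genes (-0.29), without cells holding Cd4 and Cd8 UMIs cytotoxic genes (-0.0219), and at 20% quiescence (0.0148). The B cell (0.41 without composition normalization), erythroid and platelet (0.395 there), myeloid (-0.466 in CD4 cells), NK (in cells matched on subset) and mitophagy (-0.163 in cells matched on nuclear UMIs) lists, which do not meet both conditions, also changed sign under at least 1 alternative.

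Of 2352 values of named genes under the alternatives, 20 changed sign with a call. Without composition normalization these were Cst3 (0.747), Sdf2l1 (0.358), Mki67 (0.965), Top2a (0.843), Sdha (0.562), Ccr7 (0.904), Cd3g (0.945), Cd3e (0.623) and Il2 (0.516). In cells matched on nuclear UMIs this was Il2 (0.825), after thinning Ccr7 (0.253) and Cd3g (0.289), in CD8 cells Cd3g (0.273) and Gzmb (-0.166), and at 5% Mki67 (0.145). At 20% they were Ccr7 (0.198), Cd3g (0.232) and Il2ra (-0.227), and Il2ra was -0.148 at 15% and -0.136 for under 5% against 20% or more. The cause of these changes was not tested. Calls lost without WT library 1 or 2 were those of Cd247, Csf1r, Cst3, Ccnd1, Rbl1, Cdkn1c, Adm, Slc7a11, Azin1, Gzmd, Xaf1, Foxp3 and Il2. With 2 libraries per group, differences in shares and depth have no test.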
